A study of Mus musculus with 8 samples.

Results

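The genes described here were 10 members of prostaglandin synthesis and signalling, found by matching their mouse Entrez identifiers to the identifiers of the deposited value table. All 10 were on the array, out of 24232 genes with an Entrez identifier. In the order of the pathway they were the cytosolic phospholipase Pla2g4a, the cyclooxygenases Ptgs1 and Ptgs2, the prostaglandin E synthases Ptges and Ptges2, the prostacyclin synthase Ptgis, the 15-hydroxyprostaglandin dehydrogenase Hpgd, the prostaglandin E2 receptors Ptger2 and Ptger4, and the prostaglandin F receptor Ptgfr.

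Prostaglandins are made from arachidonic acid, which phospholipase A2 frees from membrane lipids, which the cyclooxygenases Ptgs1 and Ptgs2 turn into an unstable intermediate, and which terminal synthases convert to single prostaglandins. The products leave the cell, act on receptors coupled to G proteins, and are inactivated by a dehydrogenase. In the ovary the luteinizing hormone surge induces Ptgs2 in granulosa cells, and prostaglandin E2 acting on its receptor Ptger2 is needed for expansion of the cumulus and for ovulation.

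The cells came from preantral follicles of female Swiss mice aged 8 weeks, 5 mice pooled per replicate, and were mostly granulosa cells that had been cultured for 9 days, here in medium with charcoal-treated serum. All groups were transfected with 12 pmol of an siRNA pool and a pDsRed plasmid and received either ethanol vehicle or 100 nM 17β-estradiol (E2). By the labels, lysis came after 24 h of growth in added medium and E2 was present for the last 10 h of it, whereas the text of the study places the whole siRNA period before the E2. Crossing the siRNA (control or FOXL2) with the treatment (vehicle or E2) gave 4 groups of 2 arrays. FOXL2 is a forkhead transcription factor of granulosa cells, the control pool has no target, and no group was left untransfected. Every RNA sample was labelled with Cy3 and read on a separate one-colour Agilent array. Signals were scaled to a common 75th percentile and are given as log2 scaled signal, and a change is a difference of group means on that scale. Changes were tested with limma over 15637 genes whose median scaled signal reached 10, and a change was called when its Benjamini-Hochberg adjusted p was below 0.05.

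The signal of the target itself did not settle the label of the knockdown. Averaged over its 2 probes, Foxl2 differed by 0.18 (SE 0.10, limma adjusted p = 0.334) between the arrays labelled FOXL2 siRNA and those labelled control siRNA. The average was taken before the log2 step, so it follows the brighter probe (mean log2 signal 14.12) and hardly weighs the dimmer one (6.19). The dimmer probe was called lower when probes were tested singly, at 51.1% of the control (-0.97, SE 0.19, limma adjusted p = 0.0199), and the brighter one was at 113.5% (0.18, SE 0.10, limma adjusted p = 0.364). Of 9 tested granulosa markers, 3 were called lower and 0 higher over both treatments. Among all genes 6.18% were called lower and 6.4% higher. The lower markers were Fst (-2.02, limma adjusted p = 0.000226), Gja1 (-1.80, limma adjusted p = 0.00267) and Esr2 (-0.46, limma adjusted p = 0.0168). Not called were Amhr2 (0.41, limma adjusted p = 0.0625), Inha (0.12), Inhba (-0.04), Nr5a1 (-0.10) and Cyp19a1 (-0.75). With vehicle, summed granulosa marker signals were 128000 to 139000 on control siRNA arrays and 145000 to 159000 on FOXL2 siRNA arrays, without overlap. With E2 the sums overlapped, at 126000 to 133000 and 132000 to 146000. Amhr2 made up 29.2% to 44.3% of the sums. The directions given below are those of the labels. Replicate arrays of a group correlated at 0.989 to 0.992 across genes, and each array detected 51.4% to 55.6% of its probes well above background. Of 11 granulosa markers, 8 were well above background on all 8 arrays, whereas Fshr and Amh were at background on all of them.

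Detection separated the 10 genes into those measured everywhere and those at or near background. Pla2g4a, Ptgs2, Ptges, Ptges2, Ptgis and Ptger2 were well above background on 8 of 8 arrays. Ptgs1, the constitutive cyclooxygenase of many tissues, was measured on 5 of 8 arrays. Ptger4, a second receptor that raises cAMP in response to prostaglandin E2, passed on 1 of 8 arrays, replicate 2 of control siRNA with E2, where it stood at 3.99. Neither Ptgfr, which mediates the luteolytic action of prostaglandin F2α, nor Hpgd, the main inactivating enzyme, was well above background on any array, and this held for both probes of Hpgd. Ptgfr ranged from 1.29 to 2.67 and Hpgd from 1.94 to 3.01 on the log2 scale. Before the log2 step these were 2.44 to 6.35 and 3.84 to 8.06 scaled units. The lowest signal that counted as well above background was between 9.84 and 14.8 scaled units on the 8 arrays. These 3 genes fell below the signal filter, so 7 of the 10 genes were tested.

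**Figure D1:**
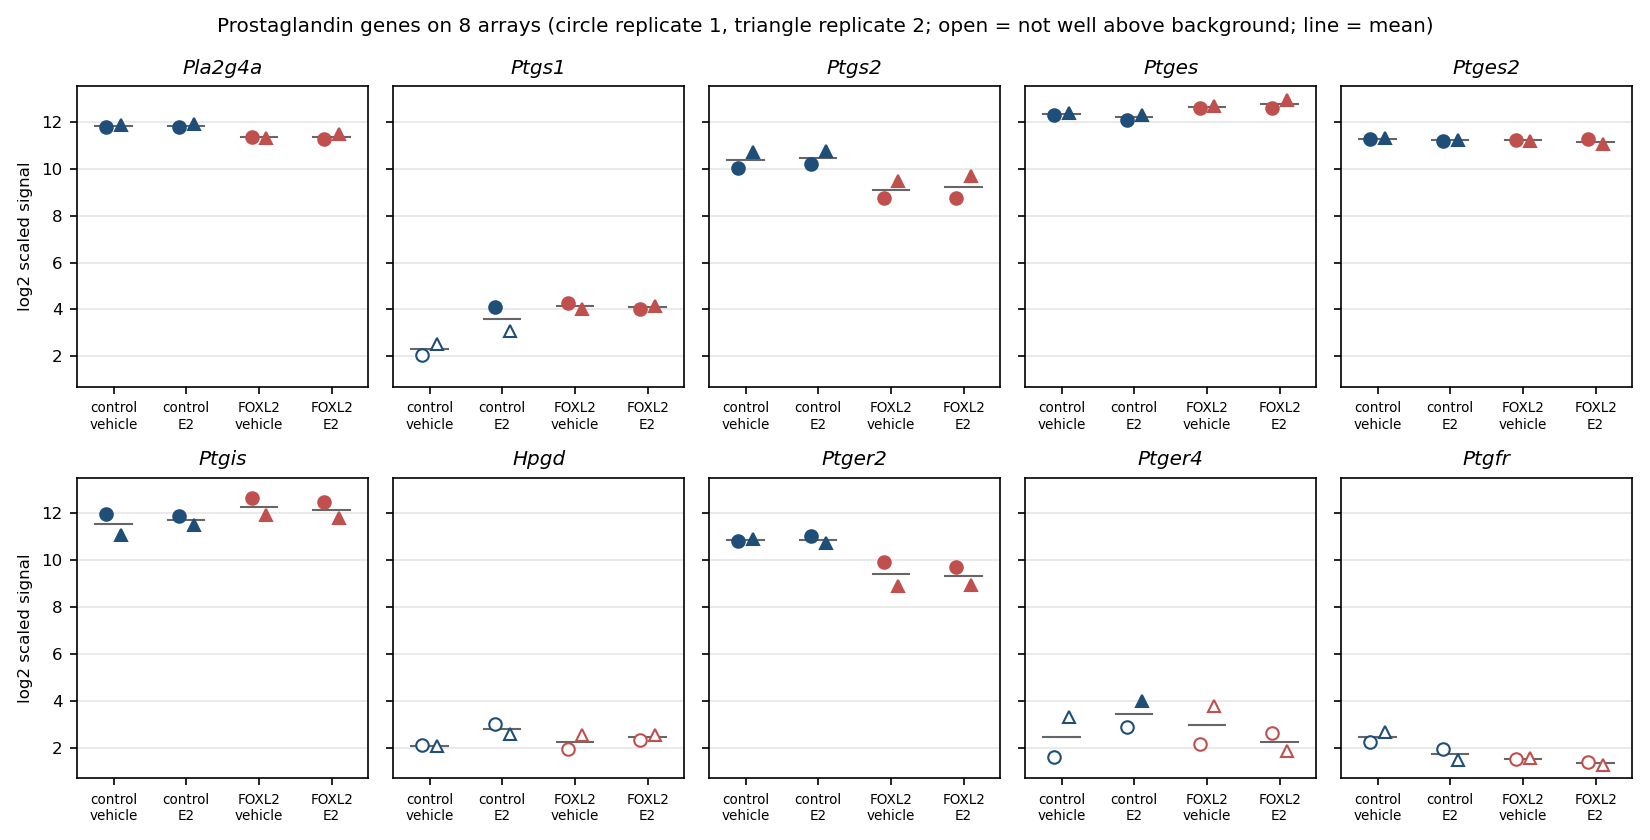
Log2 scaled signal (vertical axis) of the 10 prostaglandin genes on each of the 8 arrays, by group (horizontal axis), with circles for replicate 1, triangles for replicate 2, open symbols for signals not well above background and a line at the group mean of 2 arrays. For Ptgs2, Ptger2 and Pla2g4a each of the 4 FOXL2 siRNA arrays lies below the lowest control siRNA array, for Ptges each lies above the highest, and Ptgfr and Hpgd are open on all 8 arrays.

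The first question was whether the pathway differed between arrays labelled FOXL2 siRNA and control siRNA. Over both treatments, the inducible cyclooxygenase Ptgs2, the receptor Ptger2 and the phospholipase Pla2g4a were lower, and the synthase Ptges was higher. These were 4 of the 6 genes measured on all arrays, 3 lower and 1 higher, and over all genes tested 12.6% were called in this comparison, 6.18% lower and 6.4% higher (27.7% with the replicate block described below). This and the other shares of all genes also cover genes not measured on every array. The median change of the 6 genes was -0.26, against 0.00 over all genes. Ptgs1 was also called, higher, but it passed the signal filter through the FOXL2 siRNA arrays, so it is given apart and not counted. In these bulk samples fewer cells of a type and less RNA per cell cannot be told apart.

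Ptgs2 stood at 10.04 and 10.69 in the control siRNA arrays with vehicle and at 10.18 and 10.73 in those with E2. The FOXL2 siRNA arrays held 8.75 and 9.46 with vehicle and 8.76 and 9.70 with E2. All 4 of the latter were below all 4 of the former, and replicate 2 was the higher array in each of the 4 groups. Averaged over the treatments it fell by 1.25 (SE 0.27, limma adjusted p = 0.0215), which is 42.2% of the control level. Without the intensity trend the change was not called (limma adjusted p = 0.0552). By treatment it was -1.26 with vehicle (limma adjusted p = 0.106) and -1.23 with E2 (limma adjusted p = 0.137), neither of them called. Within a replicate number the differences were -1.29 and -1.23 with vehicle and -1.42 and -1.04 with E2. With the replicate number as a block, which compares arrays of the same number, both changes were called, at limma adjusted p = 5.64e-06 and 1e-05. The call over both treatments was lost without replicate 1 of FOXL2 siRNA with vehicle (-1.07, adjusted p = 0.0659), control siRNA replicate 2 with vehicle (-1.08, adjusted p = 0.0695) or control siRNA replicate 2 with E2 (-1.11, adjusted p = 0.0825).

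Ptger2, which couples prostaglandin E2 to cAMP in granulosa and cumulus cells, had the largest fall of the 7 genes over both treatments. Control siRNA arrays held 10.80 and 10.89 with vehicle and 11.03 and 10.71 with E2. FOXL2 siRNA arrays held 9.93 and 8.88 with vehicle and 9.70 and 8.92 with E2. No array labelled FOXL2 siRNA reached the lowest control array, but the FOXL2 siRNA replicates lay further apart than those of the control. Replicate 1 minus replicate 2 was 1.04 with vehicle and 0.78 with E2, against -0.09 and 0.32 with control siRNA. The change was -1.50 over both treatments (SE 0.25, limma adjusted p = 0.00737), to 35.3% of the control. It was -1.44 with vehicle (limma adjusted p = 0.0539) and -1.57 with E2 (limma adjusted p = 0.0526), and both passed with the replicate block (limma adjusted p = 0.000285 and 0.000192).

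Pla2g4a, the enzyme that releases arachidonic acid, had a smaller change with little spread. Its control siRNA arrays lay between 11.76 and 11.89, and its FOXL2 siRNA arrays between 11.27 and 11.46, without overlap. Averaged over the treatments it fell by 0.47 (SE 0.07, limma adjusted p = 0.00434), to 72.2% of the control. It was the only one of the 7 genes called in both single comparisons, with -0.48 with vehicle (limma adjusted p = 0.0277) and -0.46 with E2 (limma adjusted p = 0.041).

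Ptges, the inducible microsomal synthase that acts after Ptgs2, was on the other side. Control siRNA arrays held 12.28 and 12.38 with vehicle and 12.09 and 12.27 with E2, and FOXL2 siRNA arrays held 12.60 and 12.66 with vehicle and 12.58 and 12.94 with E2. The highest control array was thus below the lowest FOXL2 siRNA array. The change was 0.44 over both treatments (SE 0.09, limma adjusted p = 0.018), to 136% of the control. Without the intensity trend the change was not called (limma adjusted p = 0.0505). With E2 it was 0.58 (limma adjusted p = 0.0475) and with vehicle 0.30 (limma adjusted p = 0.25, with the replicate block 0.0351). Leaving out control siRNA replicate 1 with E2 (0.39, adjusted p = 0.069) or FOXL2 siRNA replicate 2 with vehicle (0.425, adjusted p = 0.0654) ended the call over both treatments. The 2 probes of Ptges were both called higher over both treatments when probes were tested singly, with changes of 0.97 and 0.36 (limma adjusted p = 0.0409 and 0.0252 over 31486 probes).

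Ptgs1 was measured near the detection limit, and its values are a description. Its control siRNA arrays with vehicle read 2.08 and 2.55 and were not well above background, and with E2 they read 4.10 and 3.07, of which only the first was. The 4 FOXL2 siRNA arrays were all well above background, at 4.26 and 4.04 with vehicle and 4.04 and 4.14 with E2. They overlapped the control arrays through replicate 1 of control siRNA with E2. With vehicle the change was 1.84 (limma adjusted p = 0.04999). With each dim array set to its lowest signal well above background, the FOXL2 siRNA arrays were 1.38-fold higher. This bound holds only for the background treatment of the main fit. A gene that reaches the filter only through its higher group had to differ, so this call supports nothing further, and a fold over both treatments is not given. With E2 the difference was 0.51 (limma adjusted p = 0.652). The vehicle call held under 7 of 18 alternatives and the call over both treatments under 7 of 17. With a normexp background correction the change came to 0.36 with vehicle (limma adjusted p = 0.259) and 0.21 over both (limma adjusted p = 0.27).

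The other terminal synthases were not called in the main test. Ptgis, which makes prostacyclin, read 11.97 and 11.08 with vehicle and 11.89 and 11.51 with E2 on control siRNA arrays. FOXL2 siRNA arrays read 12.63 and 11.90 with vehicle and 12.48 and 11.80 with E2. The groups overlapped, replicate 1 was the higher array in each group, and within a replicate number FOXL2 siRNA was above control siRNA in 4 of 4 pairs. The change over both treatments was 0.59 (95% interval 0.00 to 1.19, limma adjusted p = 0.187), and it was called with the replicate block (limma adjusted p = 9.89e-05). Blocked values were also below the threshold with vehicle (0.74, limma adjusted p = 0.000403, 0.316 without the block) and with E2 (0.44, limma adjusted p = 0.0149, 0.63 without the block). The 2 probes of Ptgis differed with vehicle, neither of them called. The brighter (mean log2 signal 12.90), which the gene value follows, had a change of 0.75 and the dimmer (5.93) one of -0.16. Ptges2, a second prostaglandin E synthase, spanned only 11.06 to 11.30 over the 8 arrays, with a change of -0.06 over both treatments (95% interval -0.21 to 0.09, limma adjusted p = 0.632).

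**Figure D2:**
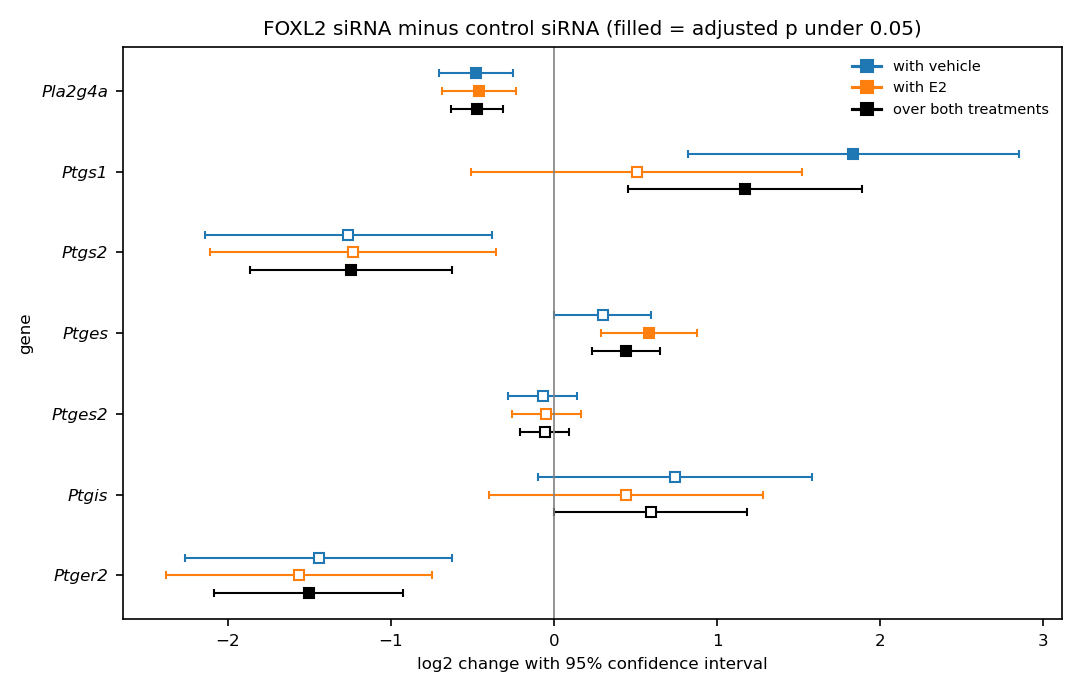
Log2 change with its 95% confidence interval (horizontal axis) of the 7 tested prostaglandin genes (vertical axis), arrays labelled FOXL2 siRNA minus control siRNA, with vehicle, with E2 and over both treatments, filled where the adjusted p was below 0.05. Over both treatments Pla2g4a, Ptgs2 and Ptger2 are filled on the left of 0 and Ptges on the right, as is Ptgs1, which was at background on 3 of 4 control siRNA arrays, and the interval of Ptges2 is the narrowest of those that span 0.

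Taken by treatment, 1 of the 6 genes measured on all arrays was called with vehicle, Pla2g4a, where 6.56% of all genes were called (3.63% higher and 2.94% lower). With E2 they were Ptges and Pla2g4a, 2 of 6, where 4.39% of all genes were called (2.25% higher and 2.14% lower). With the replicate number as a block, 5 of the 6 were called with vehicle and 5 with E2, and Ptges2 was in neither set. The block also called more of all genes, 18.7% with vehicle and 14.9% with E2. Both siRNA comparisons have their own control arrays, and the difference between them, which equals the difference of the E2 effects below, was called for none of the 7 genes.

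**Figure D3:**
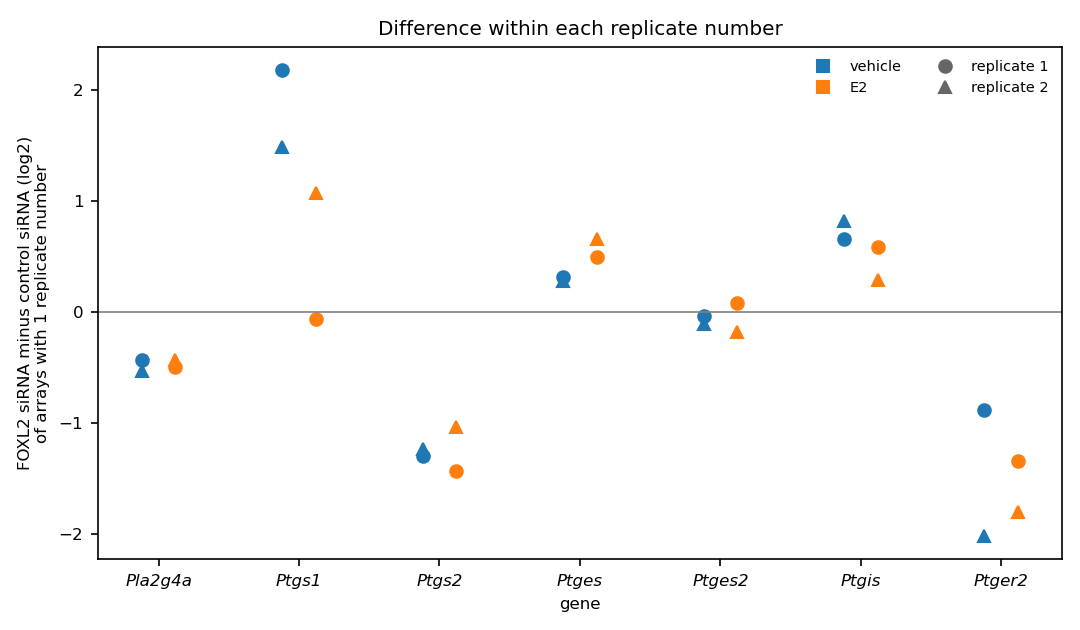
Difference in log2 scaled signal between the arrays labelled FOXL2 siRNA and control siRNA that carry the same replicate number (vertical axis), for the 7 tested genes (horizontal axis), with vehicle in blue, E2 in orange, circles for replicate 1 and triangles for replicate 2. The 4 differences are below 0 for Pla2g4a, Ptgs2 and Ptger2 and above 0 for Ptges and Ptgis, whereas those of Ptgs1 and Ptges2 have both signs.

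The second question was whether E2 moved the pathway. No prostaglandin gene was called, in cells with either siRNA, in the main test or under any alternative. Without the replicate block, the share of all genes called was 0.0192% in cells given the control pool and 0.0128% in those given the FOXL2 pool, while 716 and 478 genes had an unadjusted p below 0.05. With the block the shares were 1.16% and 0.614%. For the 6 genes measured on all arrays the E2 changes lay between -0.15 for Ptges and 0.18 for Ptgis with control siRNA, and between -0.12 for Ptgis and 0.13 for Ptges with FOXL2 siRNA. Their 95% intervals reached from -0.79 to 1.02 with control siRNA and from -0.96 to 1.00 with FOXL2 siRNA, ends set by the genes with the widest spread. The intervals were narrowest for Ptges2, -0.30 to 0.13 with control siRNA and -0.27 to 0.15 with FOXL2 siRNA.

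Ptgs1 gave the largest E2 value, a difference of 1.27 with control siRNA (SE 0.44, unadjusted p = 0.0206, limma adjusted p = 0.892). It rests on 1 of 2 E2 arrays being well above background against none with vehicle, and the bound on the fold was under 1. The difference of the E2 effects between siRNAs was called for 0 of the 7 genes, where 0.243% of all genes were called (0.237% higher and 0.0064% lower, and 2.12% in either direction with the block) and 767 had an unadjusted p below 0.05. It ranged from -0.30 for Ptgis to 0.28 for Ptges among the 6 genes measured everywhere, and was -1.33 for Ptgs1 (95% interval -2.77 to 0.11).

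**Figure D4:**
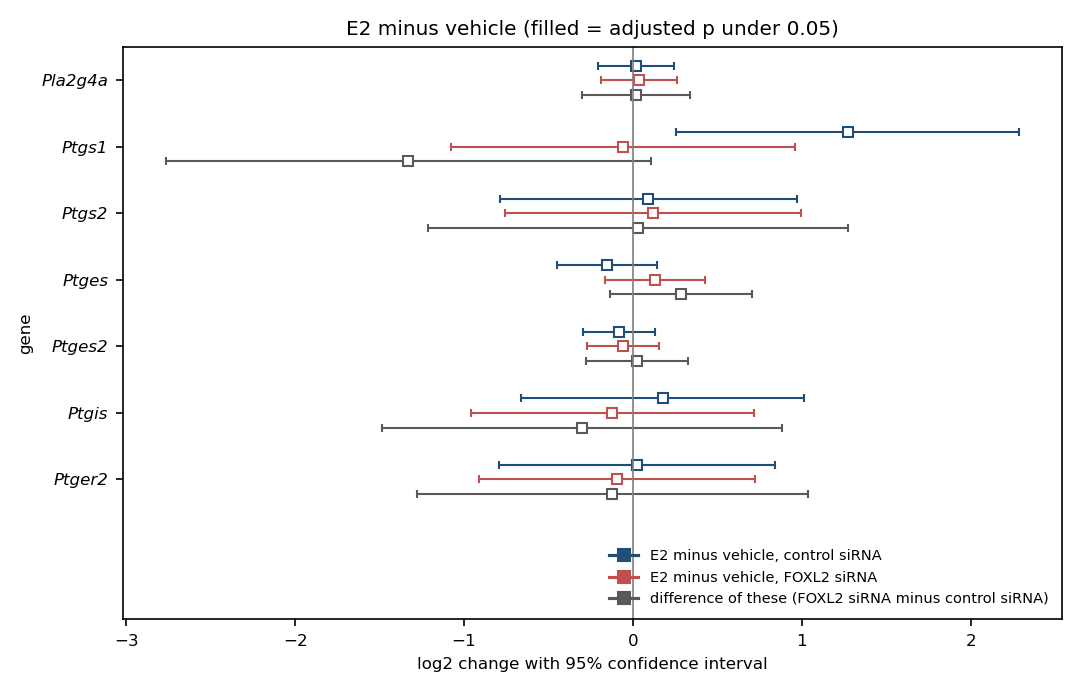
Log2 change with its 95% confidence interval (horizontal axis) of the 7 tested genes (vertical axis), E2 minus vehicle with control siRNA, with FOXL2 siRNA, and the difference of the 2 effects, with open symbols where the adjusted p was not below 0.05. All symbols are open, and the values of the 6 genes other than Ptgs1 lie between -0.30 and 0.28.

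The promoters of the 2 genes with the largest falls were read from RefSeq (GRCm38.p6), since FOXL2 binds forkhead sites and the data bear on both genes. Of the 10 genes, 9 had a promoter in this table, covering 250 bases before and 50 after the annotated start, and Pla2g4a had 2. Exact words were searched on both strands. They were the forkhead word GTAAACA with its variants ATAAACA (first letter changed), GTAAATA (sixth letter changed) and ATAAATA (both letters changed), the palindromic consensus of the estrogen response element, the cAMP response element TGACGTCA and the E-box CACGTG. The 250 bases before the start of Ptger2 (plus strand, chr14:44987861-44988110) are shown because they held the only forkhead words among the 10 promoters, in capitals below, ATAAATA on the plus strand and, 2 bases further, the same word on the minus strand. None of the words was found in the 250 bases before the start of Ptgs2 (plus strand, chr1:150099781-150100030), and the third stretch (plus strand, chr1:150100035-150100064) holds its E-box, in capitals, after the annotated start.
Ptger2: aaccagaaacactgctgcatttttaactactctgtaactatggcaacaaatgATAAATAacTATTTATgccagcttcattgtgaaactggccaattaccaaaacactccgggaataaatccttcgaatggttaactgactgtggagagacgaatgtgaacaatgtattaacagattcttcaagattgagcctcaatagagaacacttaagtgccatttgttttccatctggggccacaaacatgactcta
Ptgs2: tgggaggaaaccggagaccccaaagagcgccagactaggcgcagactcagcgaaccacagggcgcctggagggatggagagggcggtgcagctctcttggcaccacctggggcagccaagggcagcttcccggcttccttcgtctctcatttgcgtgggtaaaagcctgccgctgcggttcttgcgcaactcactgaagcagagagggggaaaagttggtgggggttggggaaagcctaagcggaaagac
Ptgs2 E-box: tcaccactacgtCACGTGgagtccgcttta

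Any of the 4 forkhead words was in 15.0% of all 32851 promoters, ATAAATA in 5.6%, the E-box in 7.15%, the cAMP response element in 1.79% and the estrogen response element in 0.07%. Beside Ptgs2, the E-box was in the promoter of Ptges2, whose signal differed least between the siRNAs. A word in a promoter is a description of its letters, and binding was not measured on these arrays.

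The wider pathway was described with 7 lists, over both treatments, where 12.6% of all genes were called, 6.18% lower and 6.4% higher. Counts near that share, as in the lists of arachidonate release and of leukotrienes, are no result about the list. Of 10 tested genes around arachidonate release, 2 were called higher and 0 lower. These were Anxa1, an inhibitor of phospholipase A2 activity (0.54, SE 0.08, limma adjusted p = 0.00362), and Acsl4, which links arachidonic acid to coenzyme A (0.41, limma adjusted p = 0.0294, called under 9 of 17 alternatives). No phospholipase of this list, which does not hold Pla2g4a, was called, among them Pla2g6 with 0.29 (limma adjusted p = 0.0685) and Pla2g12a with -0.27 (limma adjusted p = 0.0623). Of 7 tested genes in the list of other prostanoid synthases, 2 were called higher and 0 lower, beside 12.6% of all genes. They were Akr1b8, an aldo-keto reductase of the same subfamily as Akr1b3 (0.47, limma adjusted p = 0.00601), and Prxl2b, also known as prostamide and prostaglandin F synthase (0.23, limma adjusted p = 0.0466). Akr1b3 itself was not called (0.21, limma adjusted p = 0.211). The call of Prxl2b held under 5 of 17 alternatives.

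Of 9 tested genes of breakdown and transport, 2 were called lower and 1 higher, beside 12.6% of all genes. The lower ones were the hydroxysteroid dehydrogenase Akr1c14 (-1.20, SE 0.13, limma adjusted p = 0.00118) and the organic anion transporter Slco3a1, which carries prostaglandins among other substrates (-0.95, SE 0.11, limma adjusted p = 0.00177). Ptgr1, a reductase that inactivates prostaglandins and leukotriene B4, was higher (0.57, SE 0.13, limma adjusted p = 0.0289, called under 10 of 17 alternatives). Slco2a1, the classical prostaglandin transporter, had a value of 0.62 with an SE of 0.36 (limma adjusted p = 0.322). None of the 5 other prostanoid receptors tested was called, and the largest value was that of Ptger3, -2.09 with an SE of 0.66 (limma adjusted p = 0.0827), on 6 of 8 arrays well above background. In the list of the leukotriene and lipoxygenase branch 1 of 8 tested genes was called, beside 12.6% of all genes. It was the epoxide hydrolase Ephx2 (-0.95, limma adjusted p = 0.017), which is itself neither a lipoxygenase nor a leukotriene synthase. The leukotriene A4 hydrolase Lta4h was not called (0.24, limma adjusted p = 0.0509).

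Genes of cumulus expansion, the process that prostaglandin E2 takes part in, were called for 5 of 8, 4 of them lower and 1 higher, beside 12.6% of all genes. The lower ones were the epidermal growth factor-like ligands Ereg (-2.28, SE 0.41, limma adjusted p = 0.0102) and Btc (-0.97, SE 0.17, limma adjusted p = 0.00978), the hyaluronan synthase Has2 (-1.10, SE 0.16, limma adjusted p = 0.00465) and the cytokine Il6 (-0.90, SE 0.18, limma adjusted p = 0.0168). The protease Adamts1 was higher (1.39, SE 0.07, limma adjusted p = 0.00011). The matrix proteins Tnfaip6, Ptx3 and Vcan gave 0.13, 0.08 and -0.17, none of them called.

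Of 19 factors that act on Ptgs2 transcription or on its mRNA, 4 were called lower and 3 higher, beside the same 12.6%. Fos (-1.41, SE 0.14, limma adjusted p = 0.000959), Egr1 (-0.64, limma adjusted p = 0.0265), Cebpb (-0.56, limma adjusted p = 0.0068) and Crem (-0.49, limma adjusted p = 0.00791) were the lower ones, all of them transcription factors. Cebpd (1.45, SE 0.10, limma adjusted p = 0.000302), Jun (0.54, limma adjusted p = 0.025, called under 10 of 17 alternatives) and the RNA-binding protein Celf2 (0.61, limma adjusted p = 0.00208) were higher. Rela and Creb1 gave 0.06 and 0.30 and were not called. Several of the 7 lists were small, and their median changes lay between -0.57 for the other receptors and 0.21 for the other synthases, against 0.00 over all genes.

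**Figure D5:**
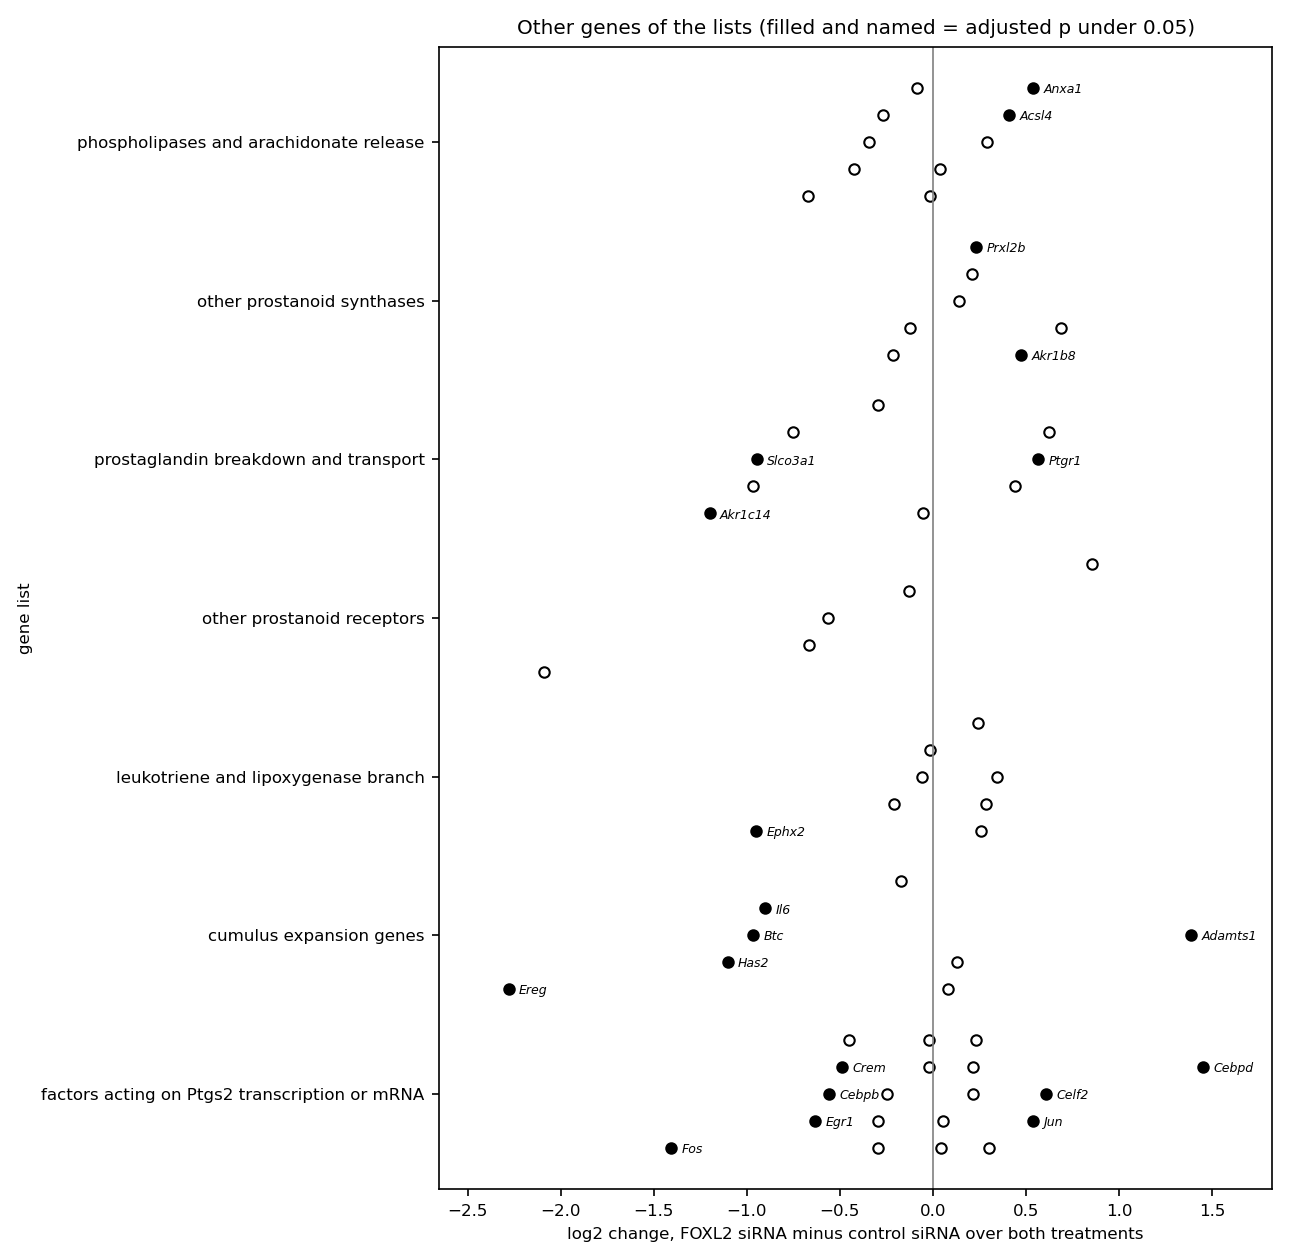
Log2 change over both treatments, arrays labelled FOXL2 siRNA minus control siRNA (horizontal axis), of the tested genes of 7 lists around the prostaglandin pathway (vertical axis), each point a gene, filled and named where the adjusted p was below 0.05. Calls fall on both sides of 0 in the lists of breakdown and transport, of cumulus expansion and of factors acting on Ptgs2, and none is seen among the other receptors.

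Genes whose pattern over the 8 arrays was like that of Ptgs2 were sought among 14168 genes well above background on all of them. Among the most alike were Dgkd, Phb2, Ghr and Snhg1, with Pearson coefficients of 0.994, 0.987, 0.981 and 0.975. The points share 2 siRNA labels and 2 replicate numbers, so these coefficients are given as a description. Dgkd, the most alike, differed by -0.23 with vehicle and -0.20 with E2 between the siRNA labels (limma adjusted p = 0.109 over both treatments).

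Among the marker lists of other cell types, only those of theca and Sertoli cells held calls over both treatments. These were 1 of 3 and 3 of 5 tested markers, all higher, where 6.4% of all genes were called higher. In which cells these markers were expressed was not tested. The summed scaled signal of 5 theca markers was 19000 to 21900 on control siRNA arrays and 35900 to 38000 on FOXL2 siRNA arrays, with 3 of 5 well above background on all arrays. Cyp11a1, called higher (0.89), made up 84.9% to 93.7% of that sum, whereas Cyp17a1 (0.62, limma adjusted p = 0.11) and Ptch1 (0.02, limma adjusted p = 0.971) were not called and Lhcgr was at background. The sum of 5 Sertoli markers, all measured on all arrays, was 2870 to 3900 and 5930 to 7270, of which Dhh made up 64.6% to 79.5%. Sox9, Dhh and Sox8 were called higher, and Dmrt1 (-0.48, limma adjusted p = 0.0694) and Ptgds (0.69, limma adjusted p = 0.157) were not called. Of 8 macrophage markers, cells in which Ptgs2 and Ptges are also inducible, 3 were at background on all arrays, Ptprc, Lyz2 and Mrc1. Sums of the 8 were 576 to 617 and 683 to 730 with vehicle, and 556 to 567 and 599 to 709 with E2. Csf1r, which was not called (0.34, limma adjusted p = 0.094), made up 57.6% to 70.5% of these sums. Of 7 endothelial markers, cells rich in Ptgis, 4 were at background, Cdh5, Tek, Vwf and Emcn. Sums of the 7 were 1260 to 1830 and 1900 to 1960 with vehicle, and 1140 to 1500 and 1600 to 1700 with E2. Kdr alone, which was not called (0.36, limma adjusted p = 0.141), made up 91.8% to 96.7% of these sums. Sums of 7 fibroblast or stroma markers overlapped, at 6000 to 10800 and 7400 to 14900, and Dcn made up 79.8% to 85.9% of them. Those of 5 mast cell markers also overlapped, at 98.6 to 234 and 84.8 to 141. Sums of 5 luteal markers were 2990 to 3100 and 4110 to 4330 with vehicle, without overlap. With E2 the luteal sums overlapped, at 3120 to 3890 and 3080 to 3720. Star made up 51.6% to 78.2% of the luteal sums. Of 7 oocyte markers, 6 were at background on all arrays. The part of these markers in the changes of the prostaglandin genes was not tested.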

How the data were processed

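Each of 8 samples was measured on its own one-colour array with 62976 spots. The authors deposited the scanner output, from which the background-corrected processed signal intensity was taken, and a table of log2 values, the mean of that signal over a gene's probes up to 1 constant per array (equal within 0.001 for 98.7% to 98.9% of values on the arrays). After 3671 control spots and 42 non-uniform probes were left out, 55639 probes remained, none of them saturated. Here the intensity was scaled to each array's 75th percentile (275.1 to 367.5), averaged over the probes of each Entrez identifier, kept where the median over arrays was at least 10, and log2 transformed. The 4 group means were fitted with limma 3.58.1 in R 4.3.3, with an intensity trend, and p-values were adjusted over 15637 genes. RefSeq symbols named 22349 of 24232 genes. The number of arrays limits the precision. A p-value here sets a change against the spread between the 2 arrays of a group, shared over the 4 groups. That spread was moderated over all genes with the intensity trend.

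Replicate numbers name biological replicates, for which mice were pooled, and the deviations of same-numbered arrays from their group means correlated at 0.327 to 0.445 over 6 pairs of groups. The numbers were therefore taken as pairing the samples, and a fit with the replicate number as a block was used as an alternative. The main fit did not use this pairing, so its spread also holds the differences between replicate numbers. Same-numbered arrays also share a row of the slide, so replicate and position cannot be told apart. All arrays were on 1 slide and scanned once. Alternatives were a normexp background with an offset of 50, quantile normalization, the brightest probe, the deposited log2 table, other filters, no trend, only the groups compared, centring on replicate medians, leaving out each of 8 arrays, and the study's call rule for E2 targets, at least 1 on the log2 scale and more than 2 times the summed SDs, applied here to all 4 comparisons of 2 groups and without subtracting replicate medians. Named were all members, the list genes called in any comparison with up to 4 others of largest change, Foxl2, and the 5 genes most like Ptgs2, 1 of which is not reported here. Members, lists and tests were chosen with earlier results of these data known. Ptgr3 and Insl3 of the lists were not matched.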

Additional observations from a re-analysis of the deposited data

How the results depend on the processing

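For the comparisons of FOXL2 siRNA with control siRNA, the changes of the 7 prostaglandin genes kept their direction under each alternative, with 2 exceptions, both uncalled and with E2. The change of Ptgs1 turned to -0.009 (-0.009 to 1.023 over the fits without 1 array) when control siRNA replicate 2 with E2 was left out, and that of Ptges2 to 0.044 (-0.137 to 0.044) when FOXL2 siRNA replicate 2 with E2 was. Counts here include Ptgs1. With vehicle, 2 genes were called; this became 1 with the brightest probe, with the deposited log2 table, without a filter and without the intensity trend, 0 with only the groups compared, 1 by the rule the study set for E2 targets (Ptgs1), 6 with the replicate block, 6 when centred on the replicate median with that block, and 0 to 2 when 1 array was left out, with 0 without either control siRNA array or FOXL2 siRNA replicate 2 of that treatment and 1, Ptger2, without FOXL2 siRNA replicate 1. With E2, 2 became 0 without a filter and without the trend, 1 with only the groups compared, 1 by that rule (Ptger2), 5 with the replicate block, 5 with centring and block, and 0 to 2 without 1 array, with 0 without any of the 4 control siRNA arrays or FOXL2 siRNA replicate 2 with E2 and 1, Ptger2, without either vehicle array of FOXL2 siRNA. Over both treatments, 5 became 3 without the trend and 3 to 4 without 1 array; Pla2g4a and Ptger2 were called under 17 of 17 alternatives, Ptges under 14, Ptgs2 under 13, Ptgs1 under 7 and Ptgis under 2, those with the block. The count of 3 came without either vehicle array of FOXL2 siRNA or replicate 2 of either control siRNA group. The block changed no other call of these genes than those named, and the E2 effects and their difference had 0 calls throughout. Over all genes, the block raised the calls from 1026 to 2928 with vehicle, from 686 to 2329 with E2 and from 1967 to 4326 over both, and the E2 calls from 3 to 182, from 2 to 96 and, for the difference, from 38 to 332. Leaving out 1 array gave at least 309 with vehicle, 130 with E2 and 1181 over both. For the other list genes called over both treatments, 412 of 459 values under alternatives kept the call and 47 lost it, and none changed direction. Uncalled list genes were not in this count, so it could show no gain of a call. The causes were not tested. Signals near background limit Ptgs1, Ptger4, Ptgfr and Hpgd, and 2 arrays per group limit all intervals.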
